A study of Mus musculus with 6 samples.

Results

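Asparagine synthetase (Asns) and 9 further genes of the stress pathway run by the transcription factor ATF4 were followed in mouse spleen after oral perfluorooctane sulfonate (PFOS), a persistent fluorinated surfactant. The genes were Asns, Atf4, Atf5, Chac1, Ddit3, Ddit4, Trib3, Slc7a5, Slc3a2 and Sesn2. They were taken by name, as every probe set whose platform gene symbol equals one of them, which gave 16 of the 45101 probe sets and 10 of the 18193 genes with a single symbol. The members were chosen by their PFOS minus control differences in these same 6 spleens, which were already known. Those differences, and any count of calls among the members, are therefore given as a description and support nothing, and no p-value is given for a member.

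The series holds whole spleens of 6 Balb/c mice aged 6 to 8 weeks. The 3 control mice had no treatment, and the 3 PFOS mice were dosed into the stomach at 10 mg per kg per day over 3 weeks. Each spleen gave total RNA for 1 Affymetrix Mouse430_2 array, and the study asked which transcripts differ with exposure. The labels call the arrays biological replicates, but the spread between them, on which all errors and p-values rest, may still be partly technical. Arrays within a group correlated at 0.9985 to 0.9991, and the median SD of a gene was 0.037 in control and 0.039 in PFOS. Whether the p-values measure the full spread between animals was not tested.

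All 6 mice are labelled female, and all 6 arrays went against that label. The Y-linked genes Eif2s3y (probe set 1417210_at) and Kdm5d (1424903_at) lay at 9.62 to 9.91 and 7.54 to 7.94 on the log2 scale, while Xist, the RNA of the inactive X chromosome, lay at 3.71 to 3.87 (1427262_at). The mismatch was on every array of both groups, so no array was left out for it. On these 3 probe sets the PFOS arrays all lay above the control arrays. Values are log2 expression after RMA, which makes the arrays' distributions alike, so a difference is relative to the other transcripts of an array. The number of arrays limits the precision.

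ATF4 is the main effector of the integrated stress response. Kinases that sense missing amino acids, missing haem, viral RNA or misfolded protein phosphorylate the initiation factor eIF2, general translation slows, and the ATF4 messenger is translated better because of short reading frames ahead of its coding sequence. ATF4 then pairs with C/EBP and other leucine zipper factors on promoters of amino acid synthesis, amino acid transport, tRNA charging and cell death genes. Much of the control of ATF4 itself is thus on translation, which an array does not measure. In blood-forming tissue the haem-sensing branch is best known from red cell precursors, and the amino acid branch from dividing and activated cells.

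The composite element that ATF4 binds with C/EBP factors has the core TGATGNAA, and it was searched on either strand in the RefSeq promoters (GRCm38.p6) of the 10 genes, from 250 bases before to 50 bases after the start. The table held promoters of 9 of the genes, Slc7a5 not among them, and 3 of the 9 held the core: Asns, Chac1 and Trib3. The core stood in the promoters of 1219 of 27025 genes, or 4.51%. The 3 matches are shown because these genes share the core, with a different base at its N, but had differences of very unequal size. Chac1 and Trib3 lay near the floor of the filter on low values, so their small differences cannot be set against that of Asns. The lines are 5′ to 3′ on the strand of the gene with the core in capitals. The first is the stretch before the Asns start at chr6:7693210-7693459 (minus strand), the second lies before the Chac1 start at chr2:119351019-119351086 (plus strand), and the third just after the Trib3 start at chr2:152344028-152344057 (minus strand). In Chac1 and Trib3 the core reads on the opposite strand.
Asns: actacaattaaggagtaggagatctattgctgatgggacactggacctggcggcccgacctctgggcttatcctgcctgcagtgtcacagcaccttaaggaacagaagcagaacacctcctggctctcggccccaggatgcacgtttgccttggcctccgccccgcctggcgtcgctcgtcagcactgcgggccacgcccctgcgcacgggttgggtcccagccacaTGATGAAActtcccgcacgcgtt
Chac1: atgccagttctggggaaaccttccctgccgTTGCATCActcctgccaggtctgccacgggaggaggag
Trib3: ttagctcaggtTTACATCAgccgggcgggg
The core began 23 bases before the Asns start. The promoters of Atf4, Atf5, Ddit3, Ddit4, Sesn2 and Slc3a2 held no match in this window, which says nothing of sites elsewhere.

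Of the 10 genes, Asns and the leucine transporter chain Slc7a5 had the largest differences, and Atf4 and Slc3a2 were lower by less. Ddit3 was lower by 0.28 on its brighter probe set and by 0.66 on its dimmer one. Trib3, Ddit4, Sesn2, Atf5 and Chac1 differed little on the probe sets that stand for them, Trib3 and Chac1 at levels near the filter floor. The highest difference of any member was 0.06, that of Trib3. All 10 genes passed the filter on low values through at least 1 probe set, as did 14 of the 16 probe sets. The fit over all genes called 6 members lower and 0 higher, and left 4 uncalled. In the same fit 26.0% of the 13101 genes tested were called lower and 40.6% higher, and since these differences chose the members, nothing is read from the count. The median difference of the members was -0.20, against 0.05 for all genes. On 12 of the 16 probe sets the 3 PFOS arrays all lay below the 3 control arrays (22.9% of all probe sets), on 1 they all lay above (35.4%), and on 3 the groups overlapped.

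**Figure D1:**
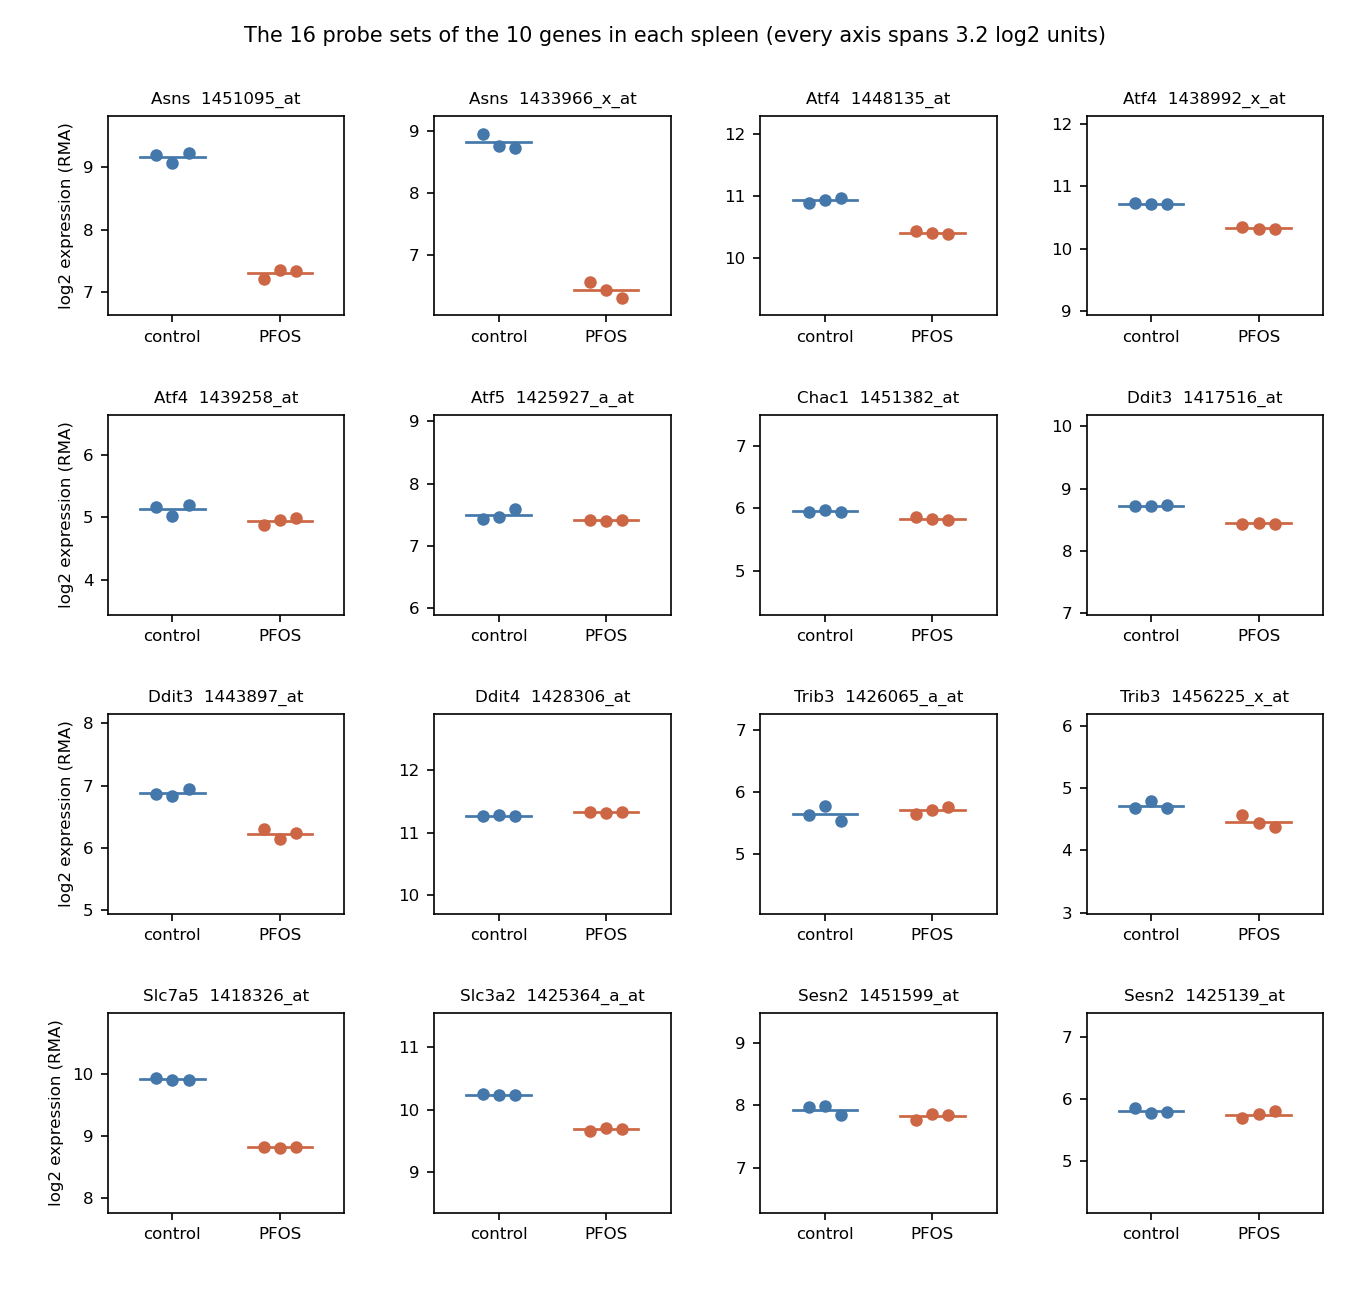
Log2 expression (RMA, vertical axis) of the 16 probe sets in 3 control and 3 PFOS spleens, with 1 point per spleen and a line at each group mean. Every vertical axis spans the same number of log2 units, so the wide gaps of Asns and Slc7a5 can be set against the near equal groups of Ddit4, Trib3 1426065_a_at, Atf5 and Sesn2.

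Directions depend on what is held constant between arrays. Bacterial transcripts added to the RNA before labelling were lower in PFOS, where the mean over 27 probe sets was 6.29 ± 0.0038 in control spleens and 5.81 ± 0.03 in PFOS spleens (SD, n = 3; difference -0.48, exact two-sided permutation p = 0.1, the smallest possible). Transcripts added later, before hybridization, lay at 10.00 in both groups over 18 probe sets (difference -0.0015, exact two-sided permutation p = 0.9), so the labelling transcripts and these give different scalings. Scaling the arrays on the labelling transcripts adds 0.48 to every difference and moves the median of all genes from 0.05 to 0.53. With that scaling Asns was lower by 1.39 and Slc7a5 by 0.61, Slc3a2 and Atf4 differed by -0.075 and -0.042, and Ddit3 and Chac1 changed sign, to 0.20 and 0.35. The order of the genes and their distance from the median of all genes stay as they are under any such constant. Differences are given below in the deposited scaling and should be read against the median of 0.05.

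Asns encodes the enzyme that makes asparagine from aspartate with the amide group of glutamine. On probe set 1451095_at the control spleens read 9.20, 9.08 and 9.23, and the PFOS spleens 7.21, 7.35 and 7.34. The lowest control spleen thus stood 1.73 above the highest PFOS spleen. The difference was -1.87 ± 0.05 (SE), which is 3.66-fold lower, which ranked 56 from the most negative of the 13101 genes. The second Asns probe set, 1433966_x_at, gave 8.95, 8.76 and 8.73 in control against 6.57, 6.44 and 6.32 in PFOS. Here the difference was -2.37 ± 0.08, or 5.17-fold lower, with a gap of 2.16 between the groups. Both probe sets thus separated the groups, and the PFOS spleens kept 27.3% ± 1.4 (SD, n = 3) of the control level on the first and 19.3% ± 1.7 on the second. Of the 2, the second carries the _x_at ending that the manufacturer gives to probe sets that may also hybridize with other transcripts.

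Slc7a5 and Slc3a2 form 1 transporter, in which Slc7a5 is the chain that carries leucine and other large neutral amino acids and Slc3a2 (CD98 heavy chain) brings it to the cell surface. Slc7a5 (1418326_at) read 9.93, 9.90 and 9.89 in control and 8.83, 8.81 and 8.82 in PFOS. The groups were far apart and the arrays within each nearly equal. The difference was -1.09 ± 0.03, or 2.12-fold lower. Slc3a2 (1425364_a_at) read 10.24, 10.23 and 10.24 in control and 9.65, 9.71 and 9.70 in PFOS. Its difference of -0.55 ± 0.03 (1.47-fold lower) was the smaller of the pair, and its groups did not overlap either. Slc7a5 and Asns were the only members at least 2-fold lower, as 2.92% of all genes tested were.

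Atf4 itself has 3 probe sets. The brightest, 1448135_at, read 10.89, 10.93 and 10.97 in control and 10.43, 10.40 and 10.39 in PFOS. Every PFOS spleen lay below every control spleen, with a difference of -0.52 ± 0.03 or 1.43-fold. Probe set 1438992_x_at gave 10.73, 10.71 and 10.72 against 10.36, 10.33 and 10.32, a difference of -0.39 ± 0.03. The third, 1439258_at, had a mean of 5.04 over the 6 arrays, under the filter floor of 5.62, and a difference of -0.19 ± 0.05. All 3 pointed the same way, with the size shrinking towards the dim probe set. With scaling on the labelling transcripts, 1448135_at came to -0.042 and the others to 0.089 and 0.28, so no direction of Atf4 is independent of the scaling.

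Atf5, a relative of ATF4 that is also controlled through translation, hardly differed. Its single probe set, 1425927_a_at, read 7.44, 7.47 and 7.59 in control and 7.42, 7.40 and 7.41 in PFOS. The groups were separated by only 0.02, and the difference of -0.09 ± 0.05 was -0.12 without control replicate 1.

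Ddit3 encodes CHOP, the transcription factor that ATF4 induces and that is tied to death of stressed cells. On 1417516_at the control spleens read 8.72, 8.72 and 8.73, and the PFOS spleens 8.44, 8.46 and 8.43. The groups did not overlap, and the difference was -0.28 ± 0.03 or 1.21-fold lower. The dimmer probe set 1443897_at read 6.86, 6.84 and 6.95 against 6.30, 6.14 and 6.24. Its difference of -0.66 ± 0.05 was the larger, so the probe sets share the direction in the deposited scaling but not the size, and scaling on the labelling transcripts turned the first of them to 0.20.

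Trib3, a pseudokinase that CHOP and ATF4 induce and that holds both in check, gave no uniform picture. Probe set 1426065_a_at read 5.64, 5.77 and 5.53 in control and 5.64, 5.71 and 5.76 in PFOS. These groups overlapped, and the difference was 0.06 ± 0.06. Probe set 1456225_x_at read 4.68, 4.79 and 4.68 against 4.57, 4.43 and 4.38, all under the filter floor, with a difference of -0.25 ± 0.06. The 2 probe sets thus had opposite signs, at levels near or under the floor.

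Chac1, an enzyme that breaks down glutathione, lay close to the floor as well. It read 5.94, 5.98 and 5.95 in control and 5.86, 5.83 and 5.81 in PFOS (1451382_at). The groups did not overlap, but the difference was only -0.12 ± 0.03, or 1.09-fold, and scaling on the labelling transcripts turned it to 0.35.

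Ddit4 (REDD1) and Sesn2 (sestrin 2) both restrain the growth kinase complex mTORC1. Ddit4 was the only member whose PFOS spleens all lay above the control spleens, with 11.26, 11.28 and 11.26 in control and 11.32, 11.31 and 11.34 in PFOS (1428306_at). The difference was 0.05 ± 0.03, close to the median of all genes (0.051), and scaling on ribosomal protein genes turned it to -0.02. Sesn2 read 7.97, 7.99 and 7.84 against 7.77, 7.87 and 7.85 on 1451599_at, and 5.86, 5.78 and 5.79 against 5.69, 5.75 and 5.80 on 1425139_at. Both probe sets overlapped between groups, with differences of -0.10 ± 0.05 and -0.06 ± 0.04. Without control replicate 3 the first was -0.15.

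**Figure D2:**
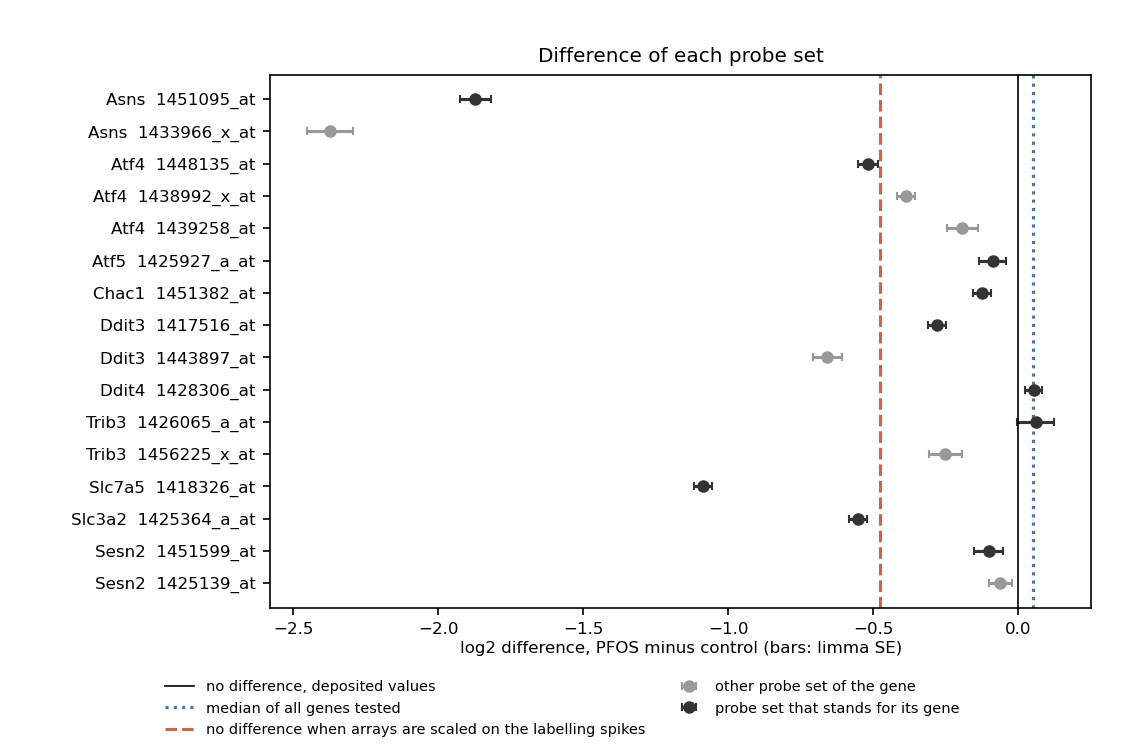
Log2 difference of each probe set, PFOS minus control (horizontal axis, bars are limma standard errors), with the median of all genes (dotted) and the point of no difference under scaling on the labelling transcripts (dashed). Asns at -1.87 and -2.37 and Slc7a5 at -1.09 lie left of every line, while Ddit3 1417516_at, Chac1, Atf5 and Sesn2 lie between the lines, where the direction depends on the scaling.

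The kinases and phosphatase subunits ahead of ATF4 moved in both directions. Of 19 genes tested in the list of eIF2 kinases and eIF2 control, 9 fell and 5 rose. That is 47.4% lower and 26.3% higher, beside 26.0% and 40.6% of all genes. The difference of these shares was not tested. The median of -0.09 turns to 0.39 under scaling on the labelling transcripts. Ppp1r15a (GADD34), the stress-induced subunit that removes the phosphate from eIF2, fell from 10.60 to 9.42, a difference of -1.18 ± 0.02 (limma adjusted p = 2.33e-08). Eif2ak1, the haem-regulated kinase HRI of red cell precursors, fell by 0.90 (limma adjusted p = 4.85e-07), with -0.49, -1.07 and -0.45 on its 3 other probe sets. Eif2ak2, the kinase PKR that senses viral RNA, fell by 0.79, but its other probe set rose by 0.13. The kinases PERK (Eif2ak3) and GCN2 (Eif2ak4), which sense misfolded protein and uncharged tRNA, rose by 0.22 ± 0.02 and 0.13 ± 0.03.

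Factors that can pair with ATF4 went both ways. Of 15 tested, 6 fell and 5 rose, or 40% and 33.3%, beside 26.0% and 40.6% of all genes. The median was -0.04 in the deposited scaling and 0.43 with scaling on the labelling transcripts. Cebpd fell by 0.55, and Junb and Cebpa rose by 0.50 and 0.55. Atf3, itself a target of ATF4, was not called, at 5.67 in control and 5.63 in PFOS. These levels are near the filter floor of 5.62, where a lack of change cannot be told from a lack of signal.

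Among transporters listed as ATF4 targets, mostly of amino acids, some of the falls were about as large as those of Asns and Slc7a5. Of 12 tested, 7 fell and 4 rose, or 58.3% and 33.3%, beside 26.0% and 40.6% of all genes. At least 2-fold lower were 3, or 25%, beside 2.92% of all genes. The difference of these shares was not tested. The median of -0.20 turned to 0.28 with scaling on the labelling transcripts. Slc43a1 (LAT3), another carrier of large neutral amino acids, read 8.97, 9.02 and 9.10 in control and 7.18, 7.25 and 7.09 in PFOS. The groups were well apart, with a difference of -1.86 ± 0.05 (limma adjusted p = 7.57e-08). The lactate carrier Slc16a1 fell by 1.17 and the glycine carrier Slc6a9 by 1.12, while the other Slc6a9 probe set fell by 0.15. On the probe sets that stand for them, these 3 stayed negative under every scaling tried. The 0.48 that scaling on the labelling transcripts adds would turn the other Slc6a9 probe set above 0.

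Enzymes of amino acid synthesis were split. Of 13 tested, 6 fell and 3 rose, or 46.2% and 23.1%, beside 26.0% and 40.6% of all genes. The median was -0.07 (0.41 with scaling on the labelling transcripts). Pck2, the mitochondrial enzyme that makes phosphoenolpyruvate, fell by 0.75 and the folate enzyme Mthfd1l by 0.59. Phgdh, which starts serine synthesis, rose by 0.43 ± 0.03 (limma adjusted p = 9.17e-06), with its other probe sets in the same direction. The other enzymes of serine synthesis, Psat1 and Psph, rose by 0.15 and 0.11. The enzymes that pass the serine carbon on to folate went the other way in the deposited scaling, Shmt2 falling by 0.21 and Mthfd2 by 0.53. The other Shmt2 probe sets differed by -0.33 and -0.096, that of Mthfd2 by -0.93 and that of Psat1 by 0.12. The 0.48 that scaling on the labelling transcripts adds would reverse the sign of Shmt2 and nearly cancel the fall of Mthfd2 by 0.53.

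Other enzymes that use or release glutamine and asparagine differed by less than Asns. Of 14 tested, 7 fell and 5 rose, or 50% and 35.7%, beside 26.0% and 40.6% of all genes. None was at least 2-fold lower (median -0.13, or 0.35 with scaling on the labelling transcripts). Pfas of purine synthesis fell by 0.69 and Ctps of CTP synthesis by 0.39, the latter turning to 0.087 under that scaling. Glud1, glutamate dehydrogenase, rose by 0.36. Asrgl1, an asparaginase, fell by 0.19, while its 3 other probe sets differed by -0.15, -0.065 and 0.070.

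Of 14 tested tRNA synthetases listed as ATF4 targets, 9 fell and 1 rose in the deposited scaling. That is 64.3% lower, beside 26.0% of all genes, and the difference of these shares was not tested (median -0.16, turned to 0.32 with scaling on the labelling transcripts). Aars fell by 0.60 and Gars by 0.30, the latter turning to 0.18 under that scaling. Cars fell by 0.71, but its other probe set differed by 0.0016. The enzyme that charges tRNA with asparagine, Nars, fell by 0.15 ± 0.02. In this list 5 of 9 promoters at hand held the core TGATGNAA, those of Aars, Gars, Iars, Tars and Yars. Over all genes tested the core stood in 3.08% of genes called lower, 3.05% of those called higher and 2.53% of those not called. With C at the N of the core the count in all promoters dropped to 279 genes and, of the members, only Chac1 kept a match.

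Other stress targets of ATF4 and CHOP showed no common direction. Of 22 tested, 6 fell and 8 rose, or 27.3% and 36.4%, beside 26.0% and 40.6% of all genes. The median was 0.05, and -0.02 with scaling on ribosomal protein genes. Gadd45a, a growth arrest gene, fell from 9.28 to 7.97, a difference of -1.31 ± 0.05 (limma adjusted p = 4.51e-07). Bcl2l11, the death factor BIM that CHOP can induce, fell by 0.41, which scaling on the labelling transcripts turned to 0.063, and Trib2, a relative of Trib3, rose by 0.53. The secreted stress hormone Fgf21 was not called, at 5.86 in control and 5.82 in PFOS, close to the filter floor of 5.62.

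Of 27 tested chaperones and genes of the XBP1 and ATF6 branch of the unfolded protein response, 18 rose, 0 fell and 9 were not called, among them Atf6 and the sensor Ern1. That is 66.7% higher, beside 40.6% of all genes, and the difference of these shares was not tested. The median was 0.13, against 0.05 for all genes, and stayed above 0 under every scaling tried, although 5 were called lower with scaling on ribosomal protein genes. The factor Xbp1 rose by 0.43 ± 0.02 (limma adjusted p = 5.14e-06), except that its probe set 1420012_at differed by 0.02. Edem1, which marks misfolded glycoproteins for disposal, rose by 0.45. Hsp90b1 (GRP94) rose by 0.34, while its other probe set fell by 0.28. The central chaperone Hspa5 (BiP) was not called, with 12.57 in both groups. Markers of plasma cells, which carry much of this machinery, were also higher. Of them 12 of 14 rose, and their summed level was 129.7 to 130.5% of the control mean in PFOS. Derl3 is in both lists and is counted in each, so the counts are not independent. What part plasma cells had in the result was not tested.

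Mitochondrial chaperones and proteases, whose failure can also feed into ATF4, fell in 7 of 12 cases and rose in 1. These shares are 58.3% and 8.33%, beside 26.0% and 40.6% of all genes, and their difference was not tested. The list median was -0.16, or 0.32 with scaling on the labelling transcripts. The prohibitin Phb2 fell by 0.64, the chaperonin Hspd1 by 0.62 and the protease Htra2 by 0.42, the last turning to 0.056 under that scaling. Of 26 tested genes of mTORC1 and its leucine input, 10 rose and 1 fell, or 38.5% higher beside 40.6% of all genes (median 0.04, and -0.03 with scaling on ribosomal protein genes). Sestrin 3 (Sesn3) rose by 0.27 and the arginine sensor relative Castor2 by 0.29. Lamtor2 rose by 0.18, but its other probe set differed by -0.05.

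Over the 11 lists 186 genes were tested, of which 33.9% fell and 35.5% rose, against 26.0% and 40.6% of all genes. With scaling on ribosomal protein genes 42 rose instead of 66, and with scaling on the labelling transcripts 160 rose and 19 fell.

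**Figure D3:**
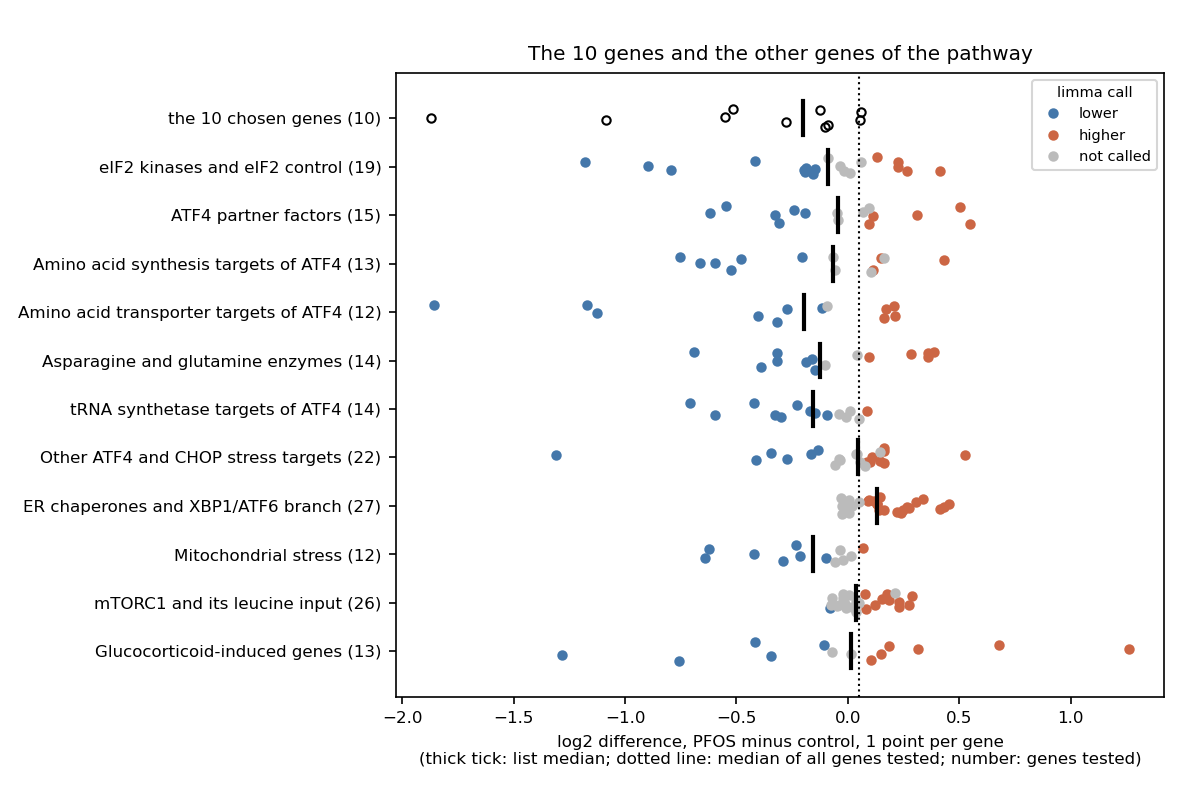
Log2 difference, PFOS minus control, of each tested gene in the 11 lists and of the 10 chosen genes (open circles, 1 point per gene), with the list medians as thick ticks and the median of all genes as a dotted line. In the deposited scaling 18 of 27 genes of the chaperone list are higher (40.6% of all genes) and 9 of 14 tRNA synthetases are lower (26.0% of all genes), and the latter median turns to 0.32 when arrays are scaled on the labelling transcripts.

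Several cell types that could carry Asns and the transporter differed in marker level on the same arrays, given here in the deposited scaling. In that scaling 26.0% of all genes tested fell and 40.6% rose. In whole spleen, fewer cells of a type and less RNA per cell cannot be told apart. All 21 tested markers of red cell precursors fell on the probe sets that stand for them (median -1.60), although the other Sptb probe set rose by 0.22. The summed linear level of the 21 markers was 99.2 to 101% of the control mean in control and 39.2 to 39.6% in PFOS. All 23 markers of dividing cells fell (median -1.48), with a sum of 37.4 to 37.6% in PFOS against 99.8 to 100.3% in control. Slc7a5 kept 46.8 to 47.3% of its control level in PFOS, Asns 25.7 to 28.2% on 1451095_at, and Atf4 69.0 to 71.1% on 1448135_at.

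Markers of liver and exocrine pancreas fell as well, and the source of these transcripts in the spleen samples was not tested. The 16 Liver markers all fell, and 12 of them had a PFOS mean under the filter floor, where the arrays do not resolve the size of a fall. Their sum read 9.05 to 9.76% of the control mean in PFOS, so that figure is no measure of how far they fell. Exocrine pancreas, a tissue known for abundant Asns, fell in 8 of 10 tested cases and rose in 0 (median -0.55). The sum of its 14 measured markers was 62.2 to 66.0% in PFOS against 99.0 to 101% in control, with 3 of them under the floor in control and 4 in PFOS. The colipase Clps fell by 1.88, with a difference of -4.32 on its other probe set, the elastase Cela1 by 0.55, and the acinar factor Bhlha15 was not called, at 6.75 and 6.76. Cela3b fell by 0.55, with -1.01 and -2.56 on its other probe sets, and Prss2 by 0.56, with -0.48 and -0.40. The pancreas sum takes the brightest probe set of each gene, so it is no measure of how far these markers fell. Neutrophil markers fell in 9 of 12 cases, to a sum of 70.5 to 72.0%. Markers of T cells rose in 13 of 13 cases, of B cells in 11 of 13 and of red pulp macrophages in 11 of 15. Their sums were 144.0 to 145%, 114.6 to 114.8% and 124.4 to 124.8%, and their median differences 0.40, 0.47 and 0.19. In the B cell sum the bright marker Ighm weighs most, at 14.96 in control and 14.99 in PFOS, so the sums do not rank these rises. No marker was at 0 on any array. The part of any of these cell types in the differences of Asns, Slc7a5, Slc3a2 and Atf4 was not tested.

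**Figure D4:**
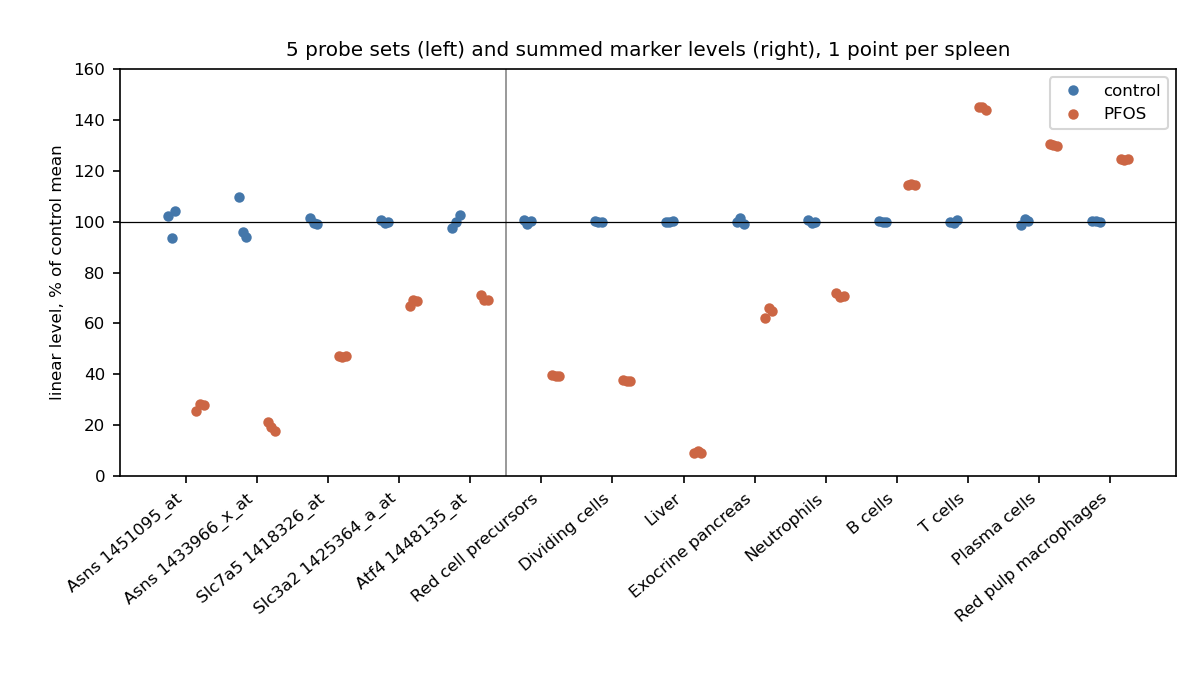
Linear level as a percentage of the control mean (vertical axis) of 5 probe sets of Asns, Slc7a5, Slc3a2 and Atf4 (left) and of the summed markers of 9 cell types or tissues (right), 1 point per spleen, in the deposited scaling. In PFOS, Asns (25.7 to 28.2% on 1451095_at) lies under the sums of red cell precursors and dividing cells, in which bright markers weigh most. Log2 differences of single markers ran from -2.20 to -0.39 in red cell precursors and from -1.87 to -0.99 in dividing cells. That of Asns on 1451095_at was -1.87. The Liver sum rests on 12 of 16 markers under the filter floor in PFOS.

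The genes whose 6 values, each set against its control mean, lay nearest to those of Asns (1451095_at) were Icam4, Alad, Saa2, Ank1 and Car3. Their root mean square distances from Asns over the 6 arrays were 0.057, 0.061, 0.063, 0.064 and 0.066 on the log2 scale. Icam4 is an adhesion protein of red cells, Alad an enzyme of haem synthesis, Ank1 the red cell ankyrin, Saa2 an acute phase protein of liver and Car3 a carbonic anhydrase of fat, muscle and liver. Icam4 read 8.99, 9.01 and 9.08 in control and 7.03, 7.13 and 7.15 in PFOS. Like Asns on 1451095_at, it was lower in PFOS replicate 1 than in replicates 2 and 3. On the second Asns probe set, 1433966_x_at, PFOS replicate 1 was instead the highest (6.57 against 6.44 and 6.32). The difference of Icam4 was -1.92 ± 0.04. Those of Alad, Saa2, Ank1 and Car3 were -1.86, -1.85, -1.85 and -1.86. Alad and Ank1 are also in the list of red cell precursor markers. These points share the arrays and the contrast, so the likeness is a description.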

How the data were processed

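The deposited table holds log2 values per probe set made by the authors with RMA, per the submitters' processing notes; the RMA version and a genome build are likewise not given in the sources used here. Gene names came from the platform annotation. Of 45101 probe sets, 64 were array controls, 34945 had 1 symbol, 932 several and 9160 none. Only those with 1 symbol and a mean at or above the 40th percentile of non-control probe sets (5.62) were tested, and each gene was represented by its brightest probe set (highest mean), giving 13101 genes. PFOS and control were compared with limma 3.58.1 (lmFit, eBayes, R 4.3.3). Two-sided p-values were adjusted over all 13101 genes by Benjamini-Hochberg, and a gene was called where the adjusted p was below 0.05. Errors of differences are limma's standard errors (SE), and those of members come from a fit over all non-control probe sets. The fit was tested on simulated data. Array medians lay between 6.15 and 6.18, and arrays correlated at 0.9985 to 0.9991 within and 0.969 to 0.970 between groups.

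The members, the 11 pathway lists (201 genes, 191 on the array) and the 9 marker lists were chosen with earlier results of these data known. Named were all members, up to 3 called genes with the smallest p and no overlap between groups in each pathway list, and the 5 genes nearest to Asns; other list genes were chosen after their values were seen. Promoters came from RefSeq (GRCm38.p6). Alternatives covered the replicate block, filter, scaling, variance prior, array weights, probe set choice, threshold and leaving out each array.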

Additional observations from a re-analysis of the deposited data

How the results depend on the processing

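Calls among the members are counted here as a description, since their differences chose them. Asns and Slc7a5 stayed below 0 under every alternative in which they were fitted. Slc3a2 came to -0.075 ± 0.027 with scaling on the labelling transcripts and to -0.017 ± 0.028 without Trp, the latter within its error of 0. Scaling on the labelling transcripts gave 792 genes lower and 11912 higher, members 3 and 6, and pathway genes 19 and 160. It turned Chac1 (0.35), Ddit3 (0.20), Ctps (0.087), Gars (0.18), Bcl2l11 (0.063), Htra2 (0.056), the Atf4 probe sets 1438992_x_at (0.089) and 1439258_at (0.28) and the Trib3 probe set 1456225_x_at (0.22). Leaving the Trp probe sets out of that scaling, a setting chosen after seeing the data, gave 723 and 12065 genes, 2 and 6 members, and 15 and 165 pathway genes. The same results turned, to 0.41, 0.25, 0.14, 0.24, 0.12, 0.11, 0.15, 0.34 and 0.28, and Atf4 came to 0.016. These scalings add a constant to each difference. Scaling on 45 ribosomal protein genes called 42 pathway genes higher, and moved the share of calls that were higher from 61.0% to 43.6%. A change of at least 2-fold was met by 382 genes lower and 9 higher, by 2 members, and by 6 and 1 pathway genes. The count of members higher was 1 (Ddit4) with the 60th percentile filter, with quantile normalization and with the trended robust prior, where it differed by 0.053, 0.071 and 0.053. The mean over probe sets lost the calls of Hsp90b1 and Lamtor2, and leaving out _s_at, _x_at and _a_at probe sets lost that of Xbp1 on its remaining probe set (0.02). The cause of these changes was not tested.

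With the replicate block 3532 genes were lower and 5518 higher and the count of members lower stayed at 6. The same-numbered arrays' deviations correlated at 0.32, 0.14 and 0.10, the last under 0.1 before rounding, and control replicate 3 correlated best with PFOS replicate 2 (0.13), so the numbers were not taken as pairs. Leaving out 1 array gave 6 to 7 members lower.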

Other observations

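Slc3a2 also carries other light chains than Slc7a5, and these were looked at after the values of the pair were seen. Slc7a6 and Slc7a7, carriers of basic and neutral amino acids, were higher in PFOS by 0.19 ± 0.03 and 0.25 ± 0.02 (limma adjusted p = 0.00158 and 6.55e-05), while Slc7a8 was not called at -0.05 ± 0.04. Of the 4 light chains tested, Slc7a5 was the one that was lower. With scaling on the labelling transcripts all but Slc7a5 lay above 0.

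Ddit4 is also induced by glucocorticoids, and other genes with that property had no common direction. Of 13 tested, 5 fell and 6 rose, or 38.5% and 46.2%, beside 26.0% and 40.6% of all genes. The median was 0.01, or -0.06 with scaling on ribosomal protein genes. The transcription factor Zbtb16 rose by 1.26 and the interleukin 7 receptor Il7r, also a T cell marker, by 0.68, while the phosphatase Dusp1 fell by 0.76. Tsc22d3 (GILZ), a direct target in lymphocytes, rose by 0.10 on the probe set that stands for it, while its 2 others differed by -0.043 and 0.13. Fkbp5 fell by 0.11, and its other probe set differed by 0.0019. The metallothionein Mt2 had the most negative difference of the list, -1.28.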
